A study of Mus musculus with 28 samples.

Results

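Contraction of skeletal muscle lacking LKB1 was examined in 14 of the 28 samples of the study, 7 from contracted and 7 from rested knockout muscle, over all 8389 genes measured above the dim limit. The animals were female FVB mice aged 4 months with a skeletal muscle specific LKB1 knockout, and the tissue was the gastrocnemius-plantaris-soleus complex. Contracted muscle was taken right after 15 min of in situ contraction driven through the sciatic nerve, and rested muscle was taken at rest. The remaining 14 samples, 7 rested and 7 contracted, came from wild-type mice of the same strain, sex and age and are used here only for comparison. The sources used here do not give the promoter or enzyme that removed LKB1. Every group holds 7 samples numbered 1 to 7.

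LKB1 (gene Stk11) phosphorylates and thereby activates AMPK, the energy sensor of working muscle, and a family of AMPK-related kinases. Contraction raises calcium, depletes energy and activates MAP kinases, and within minutes this switches on immediate-early genes. These encode transcription factors such as FOS and EGR1, and they are followed by feedback inhibitors such as the SOCS proteins and by metabolic regulators such as PGC-1alpha, encoded by Ppargc1a.

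Quantile normalization gave the deposited values nearly the same distribution on every array, so they hold no measure of an array's total signal. The dim limit was 24 of the deposited intensity units. Levels are given as log2 intensity of the brightest probe of a gene, and differences as log2 contracted minus rested. The median SD of a gene was 0.258 among rested and 0.26 among contracted knockout samples (n = 7 each). Stk11 lay between 8.56 and 9.32 in the 7 rested knockout samples and between 8.69 and 9.30 in the 7 contracted ones, while the 14 wild-type samples lay between 10.10 and 10.64. The knockout and wild-type samples therefore did not overlap for the deleted gene, and contraction left a difference of 0.01 ± 0.12 (SE) in knockout. The sources used here do not say whether the probe lies within the deleted part of Stk11.

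Immediately after contraction, some transcription factor, some cytokine feedback and some stress genes were called higher in knockout muscle. These calls came from fits on all 28 arrays that joined equal replicate numbers. The largest mean rises were those of Socs3, Rrad, Fos and Egr1, each over 3-fold, and none of these was called in the fit that did not join the numbers. Equal replicate numbers marked samples that deviated together, so the comparison was made both across the groups and within the 7 equal-numbered pairs. With the pairs taken into account on all 28 arrays, limma called 57 of 8389 genes (0.679%) at an adjusted p under 0.05. Of these, 53 rose (0.632%) and 4 fell (0.0477%). That fit also pairs the wild-type samples, whose numbers did not meet the rule used for pairing. With the pairs kept in knockout only, limma called 28 genes higher (0.334%) and 0 lower, 26 of them among the 57. These 26 were Sphk1, Socs3, Rrad, Fos, Fosb, Egr1, Ier3, Zfp36, Irgm2, Mt2, Adamts4, Bhlhe40, Myd88, Arid5a, Map3k8, Ackr1, Selp, Bcl3, Ch25h, Avpr1a, Tmem51, Litaf, Mzt2, Midn, Frmd6 and Eif1a. Every other rise and all 4 falls described below lost the call there, with adjusted p from 0.0509 (Irs2) to 1 (Cish and Eln). Across the groups without the pairs, limma called 1 gene higher (0.0119%), which was Sphk1, and none lower, with 170 genes (2.03%) at an unadjusted p under 0.05. With the pairs but only the 14 knockout arrays, limma called 0 genes, while 557 (6.64%) had an unadjusted p under 0.05; without pairs the same 14 arrays gave 0 and 143 (1.7%). The log2 differences are the same in all 3 fits, and only their errors and degrees of freedom differ. The median SE was 0.133 without pairs, 0.0977 with pairs on 28 arrays and 0.0844 with pairs on 14 arrays. Their degrees of freedom were 27.7, 16.7 and 10.4. The fits on 28 arrays share 1 spread with wild type, so an SE below is not that of the 7 knockout pairs alone. With pairs on 14 arrays the SE was larger for Fos (0.356 against 0.303), Rrad (0.356 against 0.312) and Egr1 (0.287 against 0.241). For Chac1 it was smaller (0.0786 against 0.114). In what follows, rose and fell refer to the paired fit on 28 arrays unless stated. The planned main test was the fit without pairs. The paired fit on 28 arrays was an alternative, taken for these words after the calls of the fits were seen.

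**Figure D1:**
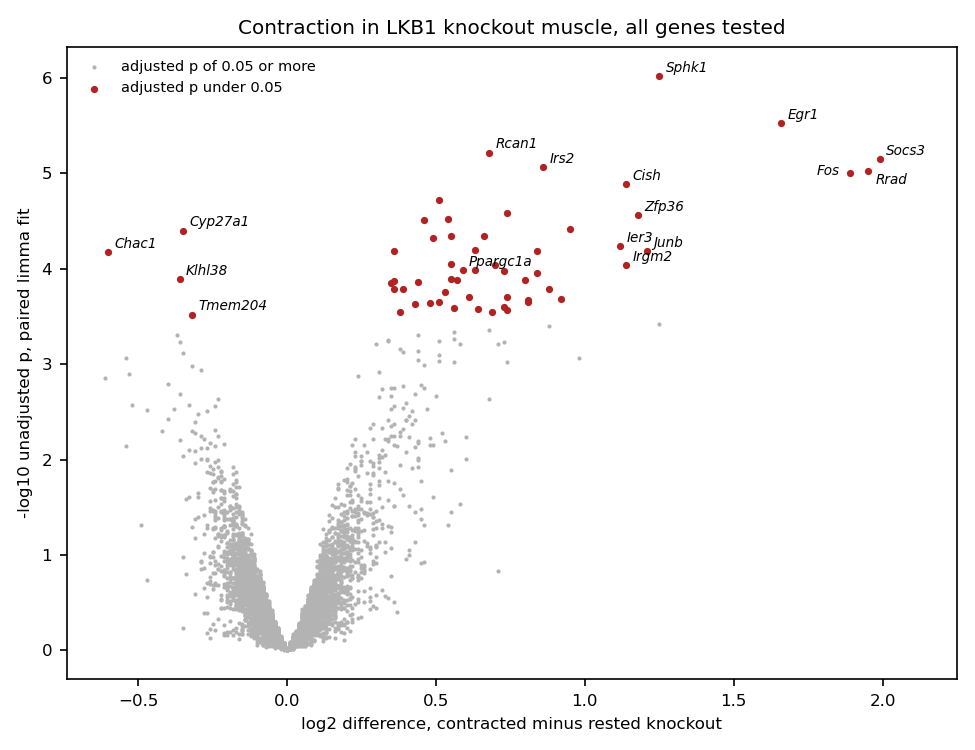
Each point is 1 of the 8389 genes tested in knockout muscle; the x axis is the mean log2 difference of contracted minus rested (7 pairs) and the y axis the -log10 unadjusted p of the paired limma fit on 28 arrays, with genes at an adjusted p under 0.05 in red. The called genes lie mostly to the right, 53 higher against 4 lower, with Socs3, Rrad, Fos and Egr1 farthest right.

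No gene separated the groups fully: for 0 of 8389 genes did every contracted sample lie above, or below, every rested sample. Within pairs, 33 of the 53 genes that rose were higher in 7 of 7 pairs and 20 were higher in 6. The 53 were chosen by a fit on these same pair differences. Agreement between pairs therefore follows largely from the choice and is no separate support, here and for single genes below. Over all genes tested, 111 (1.32%) were higher and 127 (1.51%) lower in 7 of 7 pairs. Of the 53, 10 rose more than 2-fold, and 11 of all 8389 genes differed that much. Where a called gene had other probes above the dim limit, these pointed the same way (11 of 11 probes, 8 genes), though not always by as much: Kmt5b had 0.17 and 0.09 against 0.35 for the probe used, and Dab2 had 0.30 against 0.53. Since whole muscle was measured, more cells of a type and more RNA per cell cannot be told apart.

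Sphk1, the kinase that makes the lipid signal sphingosine-1-phosphate, was the gene called both with and without the pairs on 28 arrays. Its log2 intensity was 7.63 to 8.32 in rested samples (median 7.68) and 8.20 to 9.93 in contracted samples (median 9.28). Every contracted sample except number 2 lay above every rested sample, and the highest rested sample was number 5. The difference was 1.25 (2.38-fold), with an SE of 0.18 and a limma adjusted p of 0.00134 without pairs, and an SE of 0.166 and an adjusted p of 0.00796 with them. An exact two-sided permutation test of the group labels, over all 3432 arrangements, gave p = 0.00117. All 7 pairs were higher, by 0.51 to 2.09, and the exact two-sided sign-flip test gave p = 0.0156, the smallest that 7 pairs allow. Every gene higher in 7 of 7 pairs reaches that value. Sphk1 was picked by its call in these same samples, and neither exact p is adjusted over genes, so they add no separate support. Leaving out each of the 14 knockout samples in turn kept Sphk1 called in the fit without pairs (1.11 to 1.39, highest adjusted p 0.0067). In the 2 fits on the 14 knockout arrays it was not called, and its highest adjusted p there was 0.362.

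The promoters of 4 of the largest rises are shown so that the motif matches can be read in place, as the 250 bases before the transcription start in RefSeq (GRCm38.p6), read 5′ to 3′ on the strand of the gene. Capitals mark a STAT site (TTCNNNGAA) in Socs3 and TGACG, the core of the cyclic AMP response element, in Fos and Junb. Neither these motifs nor the others searched matched in Sphk1, for which the first of 5 listed starts was taken. The annotated span of Socs3 reaches to 117970336 and that of Sphk1 begins at 116530836. Their windows thus lie before a listed start but within the span of the gene. The windows are Socs3, chr11:117969367-117969616, minus strand; Fos, chr12:85473640-85473889, plus strand; Sphk1, chr11:116530850-116531099, plus strand; and Junb, chr8:84978749-84978998, minus strand.
Socs3: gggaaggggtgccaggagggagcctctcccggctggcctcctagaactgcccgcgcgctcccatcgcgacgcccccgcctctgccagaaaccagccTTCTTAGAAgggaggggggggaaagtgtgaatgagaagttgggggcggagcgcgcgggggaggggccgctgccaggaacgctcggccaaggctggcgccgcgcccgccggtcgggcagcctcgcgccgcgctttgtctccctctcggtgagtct
Fos: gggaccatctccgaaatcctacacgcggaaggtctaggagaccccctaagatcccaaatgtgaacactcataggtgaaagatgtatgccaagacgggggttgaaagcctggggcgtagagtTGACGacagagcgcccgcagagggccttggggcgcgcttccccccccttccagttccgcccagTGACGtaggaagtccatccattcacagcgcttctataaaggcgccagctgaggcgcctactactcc
Sphk1: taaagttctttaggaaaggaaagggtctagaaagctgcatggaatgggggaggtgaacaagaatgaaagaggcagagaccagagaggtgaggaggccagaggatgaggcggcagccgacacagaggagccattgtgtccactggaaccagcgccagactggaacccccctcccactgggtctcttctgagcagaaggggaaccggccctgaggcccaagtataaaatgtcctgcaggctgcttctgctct
Junb: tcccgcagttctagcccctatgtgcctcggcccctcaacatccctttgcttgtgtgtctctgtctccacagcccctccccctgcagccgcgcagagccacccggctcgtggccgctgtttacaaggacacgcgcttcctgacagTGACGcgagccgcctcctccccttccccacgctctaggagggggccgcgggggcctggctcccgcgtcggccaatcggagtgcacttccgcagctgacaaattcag
The STAT match of Socs3 begins 154 bases before the listed start. The TGACG matches of Fos begin 129 and 66 bases before its listed start, and that of Junb 106 bases before its own. On both strands, 7.18% of all 27025 promoter windows hold TTCNNNGAA and 17.9% hold TGACG. Among the 42 genes that rose and have an entry, 6 hold the first (14.3%: Socs3, Zfp36, Irgm2, Myd88, Dab2 and Emp1) and 11 the second (26.2%). The AP-1 site TGANTCA was in 5 of the 42 (11.9%, against 6.87% of all windows), the full cyclic AMP response element TGACGTCA in 2 (4.76% against 1.62%), the heat shock element GAANNTTC in 3 (7.14% against 6.78%) and the CArG box, the SRF site, in 1, Zfp36 (2.38% against 1.4%). Full cyclic AMP response elements also contain TGACG. A match describes letters only.

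Some transcription factors of the immediate-early response rose. Of 7 measured AP-1 factors, 4 rose (Fos, Fosb, Junb and Atf3), with a median difference of 0.74 over the 7 (range -0.40 to 1.89) against -0.008 over all genes. Fos, the partner of JUN proteins in AP-1, lay at 6.97 to 8.75 in rested samples (median 7.19) and at 7.24 to 11.23 in contracted samples (median 9.50). Contracted samples 1, 3, 4 and 6 lay above every rested sample, and contracted samples 2, 5 and 7 did not. Its difference was 1.89 ± 0.30 (SE, 3.7-fold, 7 of 7 pairs, limma adjusted p = 0.0118 with pairs and 0.303 without). Junb went from a rested median of 10.20 (9.45 to 11.19) to a contracted median of 12.09 (9.52 to 12.72), a rise of 1.21 ± 0.23 (SE) in 6 of 7 pairs (adjusted p = 0.0236, and 0.781 with pairs in knockout only). The groups overlapped widely, and pair 2 was lower by 0.24. Atf3, a stress-induced AP-1 and CREB family member, rose by 0.84 ± 0.17 (SE, adjusted p = 0.0297), from 7.35 to 8.99 in rested samples (median 8.01) to 7.47 to 10.15 in contracted samples (median 9.12). Fosb was below the dim limit on all 7 rested arrays and above it on 6 of 7 contracted arrays (adjusted p = 0.0426 as fitted). No rested knockout array helped it pass the filter of 7 of 28 arrays, so the filter itself favoured a rise. Its call is therefore no support for a rise of the list, and the list median of 0.74 is its own value. With the rested arrays raised to the limit it was 1.4-fold higher after contraction. The contracted array under the limit was taken as measured, so this is a rough bound, and pair 7 had a difference of -0.22.

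The EGR, NR4A, KLF and IER list had 3 of 15 measured genes that rose, Egr1, Egr2 and Ier3, and a median difference of 0.18. Egr1, a zinc finger factor induced by MAP kinases, lay at 8.77 to 11.56 in rested samples (median 9.69) and at 9.00 to 13.04 in contracted samples (median 12.44). All contracted samples but 2 and 5 lay above every rested sample. Its rise was 1.66 ± 0.24 (SE, 3.16-fold, 7 of 7 pairs, adjusted p = 0.0118 with pairs and 0.866 without). Its paralog Egr2 rose by 0.51 ± 0.11 (SE, 7 of 7 pairs, adjusted p = 0.0387). The stress-response gene Ier3 rose by 1.12 ± 0.21 (SE), from a rested median of 9.97 (9.59 to 10.9) to a contracted median of 11.68 (10.09 to 12.04), in 6 of 7 pairs. Other members did not pass, and the orphan receptor gene Nr4a3 differed by -0.01 ± 0.11 (SE), with its probe over the dim limit on 2 rested and 1 contracted array. The related factor Csrnp1 was 0.56 ± 0.13 (SE) higher in 7 of 7 pairs but did not pass (adjusted p = 0.0641).

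**Figure D2:**
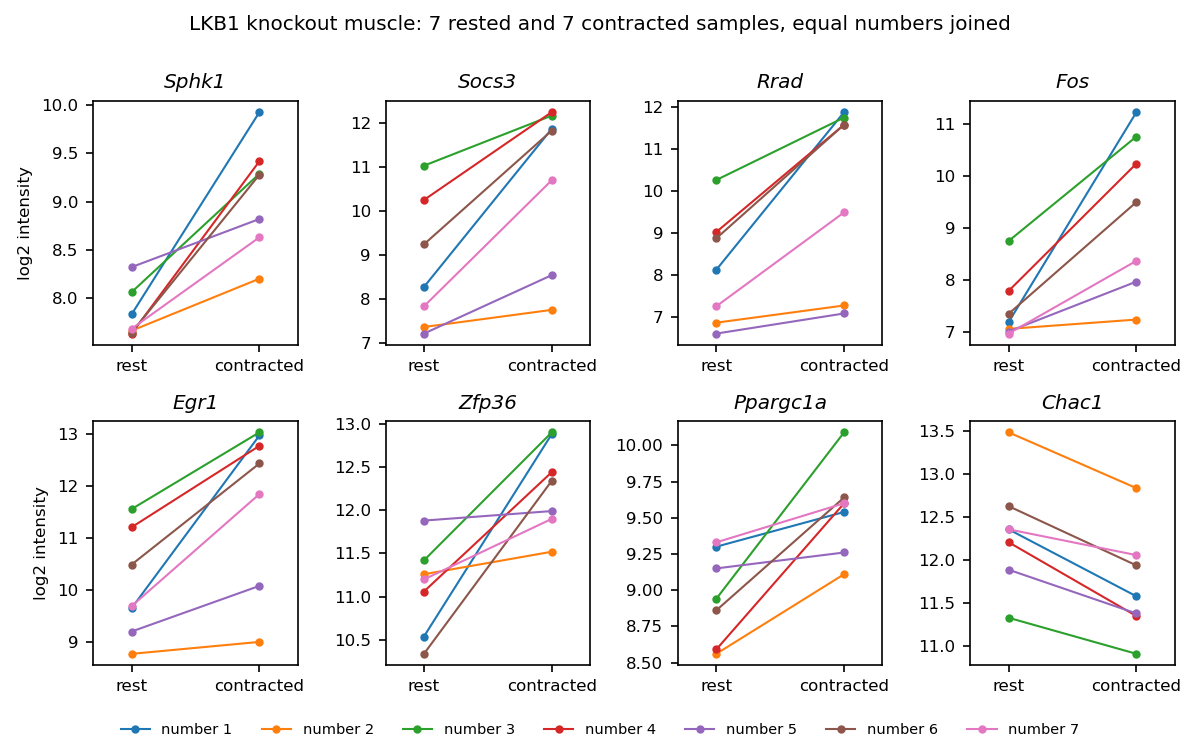
Log2 intensity (y axis) of 8 genes in the 7 rested and 7 contracted knockout samples, with samples of equal number joined by a line. Lines of Sphk1, Socs3, Rrad, Fos, Egr1, Zfp36 and Ppargc1a go up in all 7 pairs and those of Chac1 go down in all 7; the lines of numbers 2 and 5 are flattest for most of the rising genes.

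Feedback inhibitors of cytokine signalling rose beside the transcription factors. In the JAK-STAT and SOCS list 3 of 16 measured genes rose, Socs3, Cish and Socs2, all of them STAT-induced inhibitors of cytokine receptors, and the list median was 0.10. Socs3 had the largest mean difference of all genes tested, 1.99 ± 0.31 (SE, 3.96-fold, adjusted p = 0.0118 with pairs and 0.866 without). It ranged from 7.21 to 11.03 in rested samples (median 8.27) and from 7.75 to 12.25 in contracted samples (median 11.83). All 7 pairs were higher, yet contracted samples 2 and 5 lay below rested samples 3 and 4, which were the highest at rest. Cish rose by 1.14 ± 0.19 (SE, 7 of 7 pairs, adjusted p = 0.0136), from 8.5 to 10.07 at rest (median 9.49) to 9.44 to 11.36 after contraction (median 10.96). Socs2, a regulator of growth hormone signalling, rose by 0.81 ± 0.17 (SE, 6 of 7 pairs, adjusted p = 0.0387). The oncostatin M receptor gene Osmr differed by 0.47 ± 0.14 (SE) and did not pass (adjusted p = 0.22).

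Genes that shorten the life of messenger RNAs belong to the same feedback. Zfp36 and Zfp36l1, which bind AU-rich elements and trigger decay, were the 2 of 11 measured members of the mRNA decay and growth-arrest list that rose (list median 0.29). Zfp36 lay at 10.34 to 11.88 in rested samples (median 11.2) and 11.52 to 12.90 in contracted samples (median 12.34). Only contracted sample 2 lay below the highest rested sample, number 5. The rise was 1.18 ± 0.21 (SE, 2.27-fold, 7 of 7 pairs, adjusted p = 0.0198 with pairs and 0.126 without). Zfp36l1 rose by 0.69 ± 0.15 (SE, adjusted p = 0.0426). Of 11 MAP kinase phosphatases and related inhibitors, 0 passed, with differences from -0.32 (Dusp7) to 0.55 and a list median of 0.14. Of the 11, 10 were above 0, against 3904 of all 8389 genes, and Dusp7 was the exception. Over all genes the same limma fit had 57 calls (0.679%) and 439 genes at an unadjusted p under 0.05.

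Muscle signalling and metabolic regulators gave a few strong rises within lists that otherwise stayed below the threshold. Rrad, a RGK family GTPase that inhibits voltage-gated calcium channels, was the 1 of 9 measured RGK and stretch-responsive genes that rose. It lay at 6.60 to 10.26 in rested samples (median 8.12) and at 7.08 to 11.88 in contracted samples (median 11.58). Contracted samples 2 and 5 sat below the rested median, while samples 1, 3, 4 and 6 lay above every rested sample. The difference was 1.95 ± 0.31 (SE, 3.86-fold, 7 of 7 pairs, adjusted p = 0.0118). The cardiac ankyrin repeat gene Ankrd1 differed by 0.55 ± 0.20 (SE) and did not pass (adjusted p = 0.516). Rcan1, an inhibitor of the calcium-activated phosphatase calcineurin, rose by 0.68 ± 0.11 (SE, 7 of 7 pairs, adjusted p = 0.0118) although its samples spread over 10.92 to 13.44 at rest and 11.27 to 14.16 after contraction. Without the pairs it was not called (adjusted p = 1).

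Ppargc1a, the coactivator that drives mitochondrial biogenesis, rose by 0.59 ± 0.12 (SE, 1.5-fold, adjusted p = 0.0297 with pairs, 0.318 with pairs in knockout only and 0.809 without). Rested samples lay at 8.56 to 9.33 (median 8.94) and contracted samples at 9.11 to 10.09 (median 9.60). All contracted samples but 2 and 5 lay above every rested sample. It was the 1 of 15 PGC-1 and mitochondrial regulators that rose, and its relative Ppargc1b differed by 0.25 ± 0.12 (SE, adjusted p = 0.982). Irs2, which couples the insulin receptor to its downstream kinases, rose by 0.86 ± 0.14 (SE, 1.82-fold, 7 of 7 pairs, adjusted p = 0.0118), from a rested median of 9.49 (8.31 to 10.24) to a contracted median of 10.69 (8.72 to 10.92). Irs2 was the 1 of 19 genes of insulin signalling, glucose and fuel selection that rose. Hexokinase gene Hk2 differed by 0.34 ± 0.11 (SE, 7 of 7 pairs), glucose transporter gene Slc2a1 by 0.34 ± 0.08, and Pdk4, the kinase that blocks pyruvate oxidation, by -0.05 ± 0.11, and none of the 3 passed. Erfe, the muscle and erythroid hormone erythroferrone, rose by 0.44 ± 0.09 (SE, 6 of 7 pairs, adjusted p = 0.0312, and 0.214 with pairs in knockout only). Its probe was over the dim limit on 5 of 7 rested and 5 of 7 contracted arrays, so its size is uncertain. The circadian repressor gene Bhlhe40 rose by 0.88 ± 0.18 (SE, 6 of 7 pairs, adjusted p = 0.0337) and was the 1 of 13 circadian and glucocorticoid genes that did.

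Inflammatory and adhesion genes rose in part. Of 14 NF-kB pathway genes, 3 rose: the nuclear IkB proteins Nfkbiz (0.56 ± 0.12) and Bcl3 (0.54 ± 0.09), and Tnip2 (0.64 ± 0.14), an inhibitor of the pathway, with a list median of 0.06. The Bcl3 probe was over the dim limit on 3 of 7 rested and 6 of 7 contracted arrays, so its size is uncertain. Outside that list, the receptor adaptor Myd88 rose by 0.84 ± 0.16 (SE, 7 of 7 pairs, adjusted p = 0.0236). Its rested samples spanned 9.05 to 10.46 (median 9.41) and its contracted samples 9.34 to 11.24 (median 10.93). The interferon-induced GTPase gene Irgm2 rose by 1.14 ± 0.22 (SE, 6 of 7 pairs, adjusted p = 0.0285), while the interferon factor Irf1 was 0.98 ± 0.24 higher and did not pass (adjusted p = 0.0922). Map3k8, a kinase upstream of ERK, rose by 0.80 ± 0.16. Arid5a, an RNA-binding protein that stabilises cytokine transcripts, rose too, but its probe was over the dim limit on 2 of 7 rested and 5 of 7 contracted arrays, and the size depended on the background step (0.81 as fitted, 1.46 with values floored at 24). Vessel genes included Selp, the endothelial adhesion molecule P-selectin, which rose by 0.49 ± 0.09 (SE, 6 of 7 pairs, adjusted p = 0.0222), and the chemokine-binding receptor Ackr1, which rose by 0.74 ± 0.16 (SE, 7 of 7 pairs, adjusted p = 0.0381). Selp was the 1 of 10 chemokine and adhesion genes that rose. The neutrophil chemokine Cxcl1 lay at 6.80 to 7.67 at rest (median 7.36) and 6.79 to 9.47 after contraction (median 8.76). Its difference of 1.25 ± 0.28 (SE, 6 of 7 pairs) had an adjusted p of 0.0555 in limma.

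Of 11 metallothionein and oxidative stress genes, 3 rose (Mt1, Mt2 and Hmox1), 6 were above 0, and the list median was 0.02. Mt2 and Mt1 encode metallothioneins, which bind zinc and copper. Mt2 rose by 0.95 ± 0.17 (SE, adjusted p = 0.0222), from a rested median of 7.76 (7.15 to 8.38) to a contracted median of 9.13 (7.65 to 9.46). The much brighter Mt1 probe rose by 0.63 ± 0.12 (SE, adjusted p = 0.0236), from 14.31 to 15.02 at rest to 14.72 to 15.57 after contraction. Hmox1, which degrades heme, rose by 0.55 ± 0.10 (SE, adjusted p = 0.0222), and here contracted sample 5 was the highest at 8.16, with the probe over the dim limit on 3 of 7 rested arrays. Sulfiredoxin gene Srxn1 was 0.44 ± 0.10 higher by its brightest probe and did not pass (adjusted p = 0.0662), and its other probes gave 0.06 and -0.01. Txnip, an inhibitor of thioredoxin and glucose uptake, was lower in 7 of 7 pairs by -0.54 ± 0.13 (SE) and did not pass (adjusted p = 0.0927). None of 22 heat shock proteins and co-chaperones passed, while 0.679% of all genes did. Their list median was 0.03, with Hspa1a at 0.68 ± 0.19 and Dnajb1 at 0.43 ± 0.14 (SE).

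Some matrix and surface genes also rose. The summed intensity of 15 measured fibroblast and matrix markers was 19900 to 42700 at rest and 20300 to 40500 after contraction, and was higher in 6 of 7 pairs; 13 of the 15 were above 0 and 0 passed in limma (list median 0.13). Their part in these rises was not tested. Adamts4, a proteoglycan-cleaving protease, was below the dim limit on all 7 rested arrays and above it on 4 of 7 contracted arrays (adjusted p = 0.0386 as fitted). As for Fosb, no rested knockout array helped it pass the filter, which favoured a rise. With the rested arrays raised to the limit it was 1.51-fold higher. Contracted arrays under the limit were taken as measured, so this is a rough bound, and pair 7 had a difference of -0.02. Among membrane and matrix genes, elastin (Eln, 0.39), the hyaluronan receptor Cd44 (0.43), podoplanin (Pdpn, 0.48) and Mcam (0.38) rose. Gfpt2, an enzyme of the hexosamine pathway, rose by 0.74 ± 0.13 (SE). Ch25h, an oxysterol-making hydroxylase, rose as well, with its probe over the dim limit on 1 of 7 rested and 5 of 7 contracted arrays, so that its size is uncertain (0.55 as fitted, 1.05 with values floored at 24). Serpina3n, a protease inhibitor, rose by 0.73 and the vasopressin receptor Avpr1a by 0.55. The smallest rise among the 53 was that of Kmt5b, a histone H4 methyltransferase, at 0.35 ± 0.07 (SE).

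Chac1, Klhl38, Cyp27a1 and Tmem204 fell, each in 7 of 7 pairs. All 4 calls were lost with the pairs in knockout only (limma adjusted p 0.209, 0.615, 0.504 and 0.214) and with the pairs as a random block (0.279, 1, 0.165 and 0.334). Chac1 encodes a glutathione-degrading enzyme that ATF4 induces, and it was the 1 of 11 ATF4 and DNA-damage stress targets that passed. It lay at 11.33 to 13.49 at rest (median 12.36) and at 10.91 to 12.84 after contraction (median 11.58), a difference of -0.60 ± 0.11 (SE, adjusted p = 0.0236). The spread among samples was wider than this fall, and without pairs the adjusted p was 1. Klhl38, a kelch-like protein, fell by 0.36 ± 0.07, Cyp27a1, sterol 27-hydroxylase, by 0.35 ± 0.06, and Tmem204 by 0.32 ± 0.07 (SE). The stress gene Ddit4, an inhibitor of mTORC1, differed by -0.52 ± 0.15 (SE), was lower in 6 of 7 pairs and did not pass (adjusted p = 0.209).

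Several gene groups had no member that passed in either direction in the paired limma fit. These were 16 genes of LKB1, AMPK and AMPK-related kinases (median 0.01, range -0.21 to 0.16), 12 atrophy and FOXO genes (0.02), 38 oxidative phosphorylation subunits (-0.02), 26 proteasome subunits (-0.01) and 18 cytosolic ribosomal proteins (-0.04). Over all genes the same limma fit called 57 (0.679%) and had 439 (5.23%) at an unadjusted p under 0.05. At a share of 0.679% few or no calls are expected in lists of these sizes. The 0 calls therefore do not set these groups apart. Among 17 angiogenic and hypoxia genes Sphk1 rose, while the vessel growth factor Vegfa ranged from 8.20 to 10.06 at rest and 8.39 to 9.33 after contraction and differed by 0.08 ± 0.20 (SE, 4 of 7 pairs higher).

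The size of the response differed between pairs. The median difference of the 53 genes that rose was 1.2 in pair 1, 0.91 in pair 6, 0.83 in pair 4, 0.67 in pair 3, 0.51 in pair 7, 0.3 in pair 5 and 0.19 in pair 2. All 53 were higher in pairs 1, 4 and 6, and 43 were higher in pair 2. For Fos the difference ran from 0.19 in pair 2 to 4.04 in pair 1, and for Egr1 from 0.23 to 3.32.

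**Figure D3:**
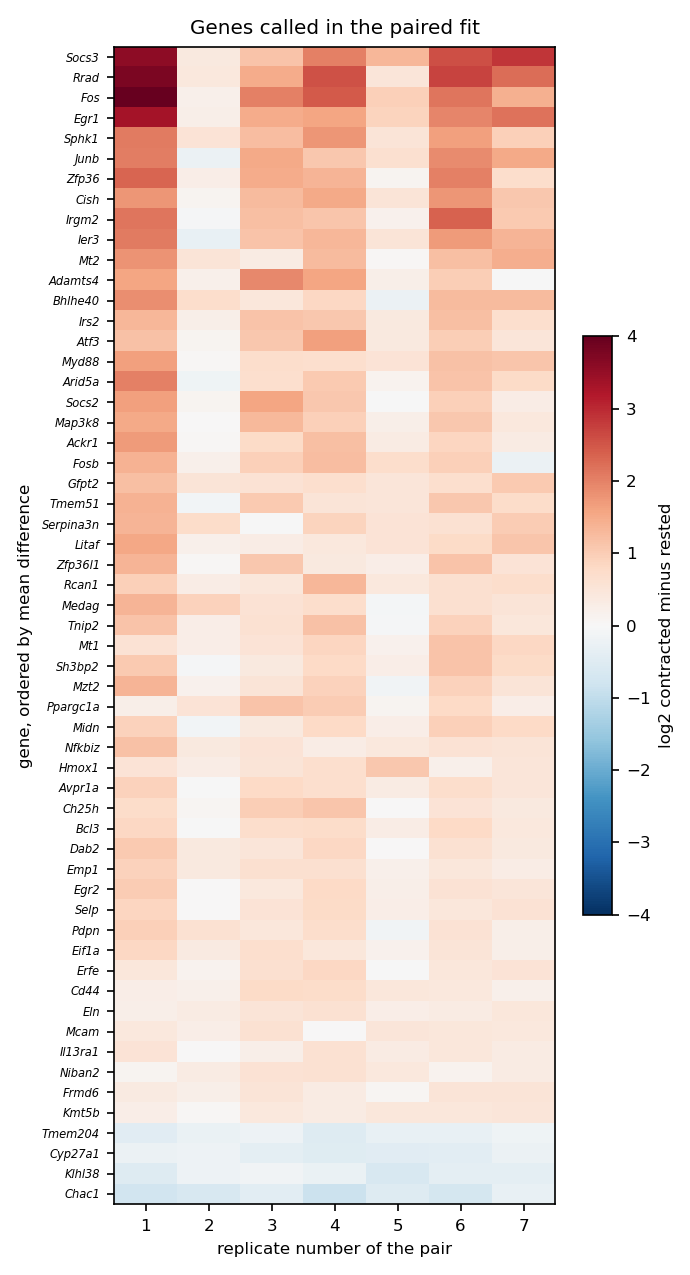
Rows are the 57 genes called in the paired fit, ordered by mean difference, and columns are the 7 knockout pairs; colour is the log2 difference of contracted minus rested, red for higher. Columns 1, 4 and 6 are red for all 53 rising genes, and columns 2 and 5 are the palest, with medians of 0.19 and 0.3.

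Markers of other cells in the muscle differed between these samples. None of the 11 cell type lists had a called member except the Schwann cell list, through Egr2, which the EGR list holds too. Over all genes 0.679% were called, so few calls are expected in such lists. For neutrophils, 7 of 13 markers were measured, and their summed linear intensity was 185 to 717 in rested and 219 to 2540 in contracted samples, with the highest value in contracted sample 5 and higher values in 5 of 7 pairs. Each of these 7 markers had a mean log2 difference above 0 (median 0.3, the smallest rounding to 0), and 0 passed in limma. Only Mmp9 was over the dim limit on all 14 knockout arrays. S100a8 was over it on 12, Lcn2 on 9, Retnlg and Elane on 5, and S100a9 and Csf3r on at most 4, so these differences rest largely on dim probes. The neutrophil granule genes Mpo and Mmp8 were over the dim limit on 0 of 14 knockout arrays. For macrophages, 9 of 13 markers were measured and summed to 5540 to 16900 at rest and 5450 to 24000 after contraction, with contracted samples 5 and 2 the highest. The macrophage sum was higher in only 2 of 7 pairs. For lymphocytes, 11 of 19 markers were measured and summed to 874 to 12800 at rest and 1120 to 19200 after contraction, with rested sample 4 and contracted sample 5 standing apart. The lymphocyte sum was higher in 3 of 7 pairs. The B cell marker Ms4a1 was over the limit on 0 of 14 arrays. The 10 slow-fibre markers summed to 24200 in rested sample 4 and 61200 in contracted sample 4, against 115000 to 209000 in the other 12 knockout samples. Each of the 10 had a mean log2 difference above 0 (median 0.15), 0 passed in limma, and their sum was higher in 4 of 7 pairs. The 4 measured red blood cell markers summed to 29400 to 50500 at rest and 15900 to 54100 after contraction, higher in 2 of 7 pairs. The lowest value was that of contracted sample 1, whose rested partner had 48000 and whose pair had the largest response. The 5 measured Schwann cell markers summed to 621 to 1820 at rest and 857 to 2240 after contraction, higher in 6 of 7 pairs. The part of these differences in the contraction response was not tested.

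Without pairs 2 and 5 the paired limma fit called 76 genes higher and 2 lower, 48 of them among the 57, and the median difference of the 53 was 0.84 in place of 0.68. These pairs had the smallest differences of the 53, so a larger median without them follows from the choice. For the same reason the counts of 76 and 48 are no test of the response. How many genes passed depended on single pairs. Without pair 1 the paired fit called 3 genes higher (Sphk1, Egr1 and Fos), without pair 3 it called 6, without pair 4 it called 3 (Sphk1, Egr1 and Rcan1), and without pair 7 it called 17 higher and 2 lower. Without pair 6 limma called 0 genes, with a lowest adjusted p of 0.0625 and 364 genes at an unadjusted p under 0.05. Leaving out pair 2 gave 64 higher and 4 lower, and leaving out pair 5 gave 55 and 2. Egr1 and Sphk1 stayed called in 6 of the 7 leave-outs, Rcan1 in 5, and Fos, Rrad and Socs3 in 4. No gene of the 57 stayed called in all 7, and 5 were called in none: Serpina3n, Nfkbiz, Mcam, Niban2 and Tmem204.

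**Figure D4:**
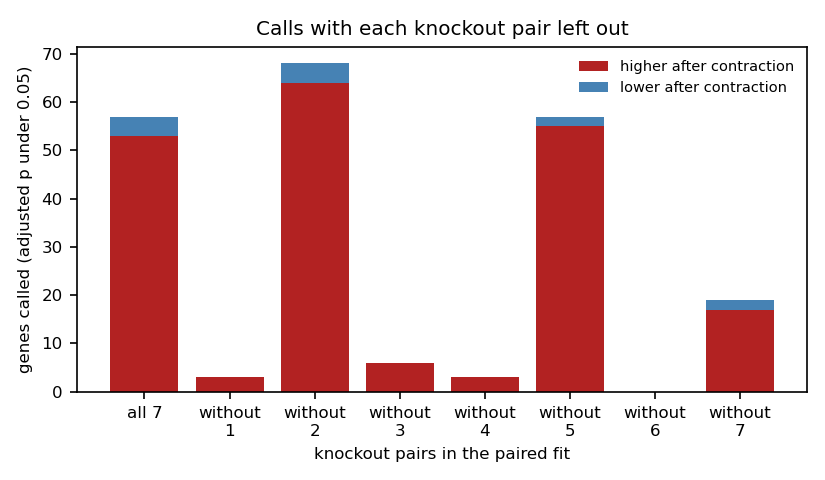
Bars give the number of genes called by the paired limma fit on 28 arrays with all 7 knockout pairs and with each pair left out (x axis), stacked as higher and lower after contraction. The count falls from 57 to 0 without pair 6 and is tallest without pair 2, at 64 higher and 4 lower.

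The wild-type samples tested whether the response of knockout muscle differed from that of muscle with LKB1. In wild type the paired limma fit on 28 arrays called 1 gene (0.0119%), Cxcl1, with a difference of 1.94 ± 0.28 (SE, adjusted p = 0.0262), with 323 genes (3.85%) at an unadjusted p under 0.05. Without pairs limma called 0 wild-type genes and 89 (1.06%) had an unadjusted p under 0.05; with pairs on the 14 wild-type arrays it called 1, Egr1, and the unadjusted count was 173 (2.06%). The 53 genes that rose in knockout had a median difference of 0.17 in wild type against 0.68 in knockout, and 49 had the same sign in wild type (92.5%, against 59.4% of all genes). Since the 53 were chosen by their difference in knockout, their larger size there is no test. The test of the difference of the responses called 0 genes in limma, both without pairs (52 genes, 0.62%, at an unadjusted p under 0.05) and with them (203 genes, 2.42%). For Sphk1 the difference of responses was 0.98 ± 0.24 (SE, 1.25 in knockout and 0.27 in wild type), for Rrad 1.64 ± 0.44 (1.95 and 0.31), for Fos 1.39 ± 0.43 (1.89 and 0.49) and for Rcan1 0.72 ± 0.15 (0.68 and -0.04), each with an adjusted p of 1 in the paired limma fit. Differences were smaller for Egr1 (0.40 ± 0.34), Socs3 (0.72 ± 0.44) and Hmox1 (-0.02 ± 0.14). The wild-type responses of the 4 genes that fell were -0.39 for Klhl38, -0.10 for Chac1, -0.08 for Cyp27a1 and -0.08 for Tmem204. When arrays were weighted by their quality, limma called the difference of responses for Sphk1 (1.36, adjusted p = 0.0158) and for Slc10a6, a steroid sulfate transporter gene (1.18, adjusted p = 0.047).

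**Figure D5:**
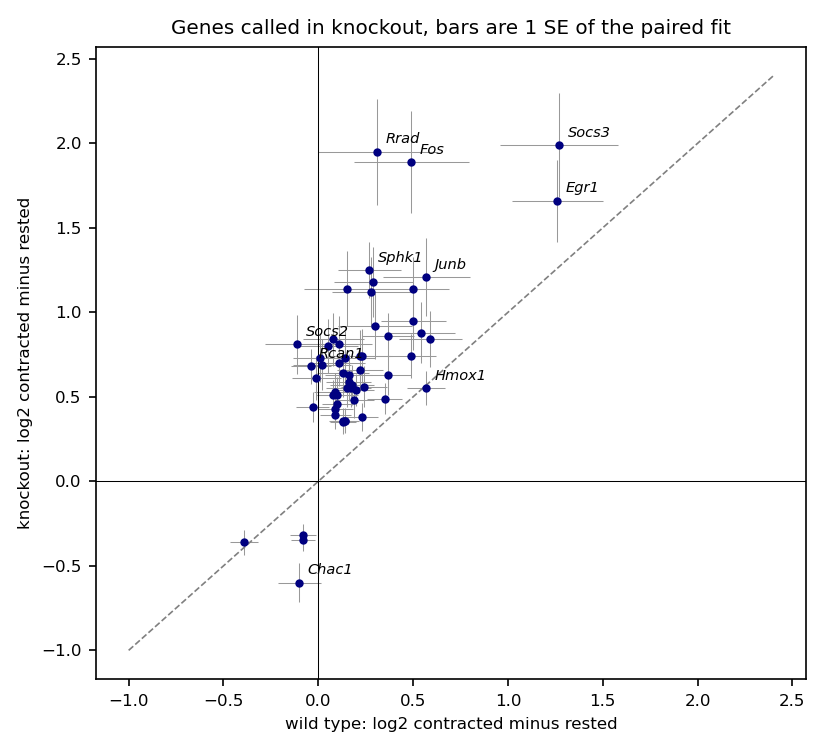
Each point is 1 of the 57 genes called in knockout; the x axis is its log2 contraction difference in wild type and the y axis that in knockout, with bars of 1 SE from the paired fit and a dashed line of equal responses. Most rising genes lie above the line, Hmox1 lies next to it, and Socs3 and Egr1 are the 2 over 2-fold in wild type as well; the genes were chosen on the y axis.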

How the data were processed

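RNA of 28 muscle samples was measured on 1-colour arrays of 25697 probes. The values used are the deposited linear intensities, which run from -36.1 to 50215, with 27.2% below 0, and were background-subtracted and quantile-normalized as the values themselves show. The submitters' processing notes name R 3.1.2, limma 3.1 and lumi 3.0. A deposited table of values without normalization was not used, since its columns could not be assigned to knockout samples. The labels name the samples of a group as replicates without saying that each is a separate animal, so the spread behind each p-value may be technical in part. As arrays, their number limits the precision.

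Intensities were corrected by normexp with an offset of 50 and turned to log2 (limma 3.58.1, R 4.3.3). Of 11723 probes over 24 in at least 7 of 28 arrays, 11073 had a gene symbol. Symbols came from the platform annotation (23978 probes with 1 symbol, 0 with several, 1719 with none), and the brightest probe stood for each of 8389 genes. Groups came from the sample titles. A limma fit of the 4 group means on 28 arrays was the test, with Benjamini-Hochberg adjustment and a threshold of 0.05. Equal replicate numbers as a block, on the 14 knockout arrays or within genotype on 28 arrays, were alternatives. The labels give the numbers only. Deviations of equal-numbered rested and contracted knockout samples correlated across genes at 0.37 to 0.85 (mean 0.657, 7 of 7 over 0.1, 5 of 7 best with their own number, exact one-sided permutation p = 0.000198 over 5040 orders). By the rule of every pair over 0.1, the numbers pair the knockout samples. In wild type the range was -0.04 to 0.55 (5 of 7 over 0.1, exact p = 0.0183), so by that rule the wild-type numbers do not pair their samples, although the 28-array block fit treats them as pairs. Exact permutation tests were two-sided.

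Named genes are the largest calls, up to 4 members of each of 20 response lists by smallest p, the 5 smallest p for the difference of responses, and Stk11, Fos, Egr1, Ppargc1a, Nr4a3, Pdk4 and Vegfa. As the block fit on 14 arrays called no gene, the called genes of the 28-array block fit, and Txnip, Irf1, Cxcl1 and Slc10a6 where no other part of the rule names them, were added after their values were seen, as were the STAT and TGACG motifs. Members and lists (31 lists, 558 genes, 412 tested) were chosen with earlier results of these data known. Rough lower bounds for genes dim on all rested arrays set the rested level of each array to its lowest signal over the limit where that was higher. Contracted levels were kept as measured, also under the limit. Alternatives changed the background step, the offset, the dim filter, the probe rule, the variance model, the array weights, the arrays fitted and the samples included.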

Additional observations from a re-analysis of the deposited data

Results flagged for a closer look

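In 6 of the 174 group values tested (3.45%), 1 sample stood apart from the other 6 of its group by a gap that Dixon's criterion marks, which chance gives in about 1 in 20 groups. Contracted knockout sample 5 had the highest Hmox1 (log2 intensity 8.16, next 7.15). Contracted sample 7 had the lowest Dab2 (8.48, next 9.41) and the lowest Zfp82 (6.19, next 6.52), and rested sample 7 had the lowest Map3k8 (6.80, next 7.54). Rested sample 3 had the highest Vegfa (10.06, next 8.93), and rested sample 2 stood apart in Fbxo32, a muscle atrophy ubiquitin ligase (13.14, nearest 12.44).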

How the results depend on the processing

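The count of called genes depended on whether and how the pairs entered. Without pairs 1 gene was higher and 0 lower. The replicate block gave 53 higher and 4 lower within genotype on 28 arrays, and 0 on the 14 knockout arrays, where the fit without a block also gave 0 (limma, 557 and 143 genes at an unadjusted p under 0.05). A block in knockout only gave 28 higher and 0 lower (26 among the 57), and a random replicate block gave 33 and 0 (30 among the 57, Rrad not included at an adjusted p of 0.0519). Array weights gave 46 higher (29 among the 57), and 2 genes for the difference of responses. Without normexp and with a floor at 24, the fit without pairs called 4 genes higher, and the replicate block called 17 higher and 0 lower, all 17 among the 57. The other background, filter and probe settings gave 37 to 51 higher and 3 or 4 lower with the replicate block. Leaving out 1 sample gave 1 to 8 higher genes without pairs, with the most without contracted sample 2. Leaving out 1 pair gave 0 to 24 higher and 0 to 1 lower on 14 arrays, the 24 without pair 2, and 0 to 64 higher and 0 to 4 lower on 28 arrays (3, 64, 6, 3, 55, 0 and 17 higher without pairs 1 to 7). Leaving out pairs 2 and 5 together gave 76 and 2, but these pairs had the smallest differences of the 53, so this count is no test. In wild type, 1 gene was higher with the replicate block on 28 arrays (Cxcl1), 1 on 14 arrays (Egr1, 1.26, adjusted p = 0.00512) and 1 with array weights (Cxcl1). Near-zero differences changed sign on leaving out 1 sample: Stk11 from -0.06 to 0.07, Nr4a3 from -0.04 to 0.03, Pdk4 from -0.18 to 0.07 and Vegfa from -0.02 to 0.29. Nr4a3 was also at 0 with the floor and 0.02 with array weights. Alternatives were also compared, for 87 named genes, with the fit without pairs. Of 2081 comparisons, 1956 kept their direction and side of the threshold, 105 passed it newly, 2 lost it (Sphk1 on 14 arrays) and 18 changed sign. The fit without pairs called Sphk1 alone, so for every other gene keeping the side means staying uncalled. These counts therefore do not measure how stable the rises of the paired fit are. The cause of these shifts was not tested. Probes near the dim limit, such as Nr4a3, Fosb and Adamts4, allow rough bounds or no order at all.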

Other observations

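Genes outside the listed groups rose as well in the paired limma fit on 28 arrays. Litaf, a lysosomal membrane protein induced by lipopolysaccharide, rose by 0.70 ± 0.14 (SE, 7 of 7 pairs, limma adjusted p = 0.0285), and Il13ra1, a receptor chain for interleukin 13, by 0.36 ± 0.07 (7 of 7 pairs, adjusted p = 0.0337). Emp1, an epithelial membrane protein, rose by 0.51 ± 0.09 (7 of 7 pairs, adjusted p = 0.0176) and the endocytic adaptor Dab2 by 0.53 ± 0.11 (7 of 7 pairs, adjusted p = 0.0351). Among genes of the basic machinery, the translation factor Eif1a rose by 0.46 ± 0.08 (7 of 7 pairs, adjusted p = 0.0198) and Mzt2, a partner of the gamma-tubulin complex, by 0.61 ± 0.13 (6 of 7 pairs, adjusted p = 0.0381). With the pairs in knockout only, Emp1, Il13ra1 and Dab2 were not called (the lowest adjusted p of the 3 was 0.06, that of Il13ra1).

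Of the 13 measured circadian and glucocorticoid genes, 4 were above 0 and Bhlhe40 rose. Fkbp5, a co-chaperone of the glucocorticoid receptor, differed by -0.38 ± 0.11 (SE, lower in 7 of 7 pairs, adjusted p = 0.22) in knockout and by -0.47 in wild type. Tsc22d3 differed by -0.33 ± 0.09 (lower in 6 of 7 pairs, adjusted p = 0.212) in knockout and by -0.10 in wild type, and Sgk1, a kinase gene of the growth-arrest list, by 0.25 ± 0.09 (higher in 5 of 7 pairs, adjusted p = 0.453) in knockout and by 0 in wild type. The matrix gene Ccn2 differed by 0.51 ± 0.13 in knockout (7 of 7 pairs, adjusted p = 0.0961) and by 0.05 in wild type. In the fit without pairs, Zfp82, Psmd9 and Hoxc13 were among the 5 genes with the smallest p for the difference of responses, none of them called. Their probes were over the dim limit on 2 (Zfp82), 1 (Psmd9) and 1 (Hoxc13) of 7 contracted knockout arrays, so no direction is given for them.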
